A study of Mus musculus with 14 samples.

Results

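The 9 genes of the mouse Hoxc cluster (Hoxc13, Hoxc12, Hoxc11, Hoxc10, Hoxc9, Hoxc8, Hoxc6, Hoxc5 and Hoxc4) were followed by the contacts of their promoters. In promoter capture Hi-C (PCHi-C), HindIII fragments that neighbour each other in the nucleus are ligated, and the ligation products with a promoter fragment, the bait, are pulled out and sequenced. A bait was taken as a member when it held a transcription start site of one of these genes. This rule gave 9 bait fragments, 1 for each gene, of 22171 baits in the series. The Hoxc10 bait also holds an upstream start site of Hoxc5, and a bait between Hoxc12 and Hoxc11 that holds no start site of a member was left out. The long noncoding RNA gene Hotair, which lies between Hoxc12 and Hoxc11, has no bait.

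The series holds 14 PCHi-C libraries of mouse cranial neural crest cells (CNCCs), 2 biologically independent replicates for each of 7 conditions, from embryos of a mixed C57Bl/6J and CD1 background. At E10.5, wild-type CNCCs were taken from 4 facial tissues, namely FNP (frontonasal), Mx (maxillary), Md (mandibular) and PA2 (the second pharyngeal arch). Wild-type pinna CNCCs, which descend from PA2, were taken at E12.5 and E14.5. Knockout PA2 CNCCs were taken at E10.5 from Hoxa2EGFP/EGFP embryos. The wild-type embryos carried Wnt1::Cre and a ROSA-RFP reporter, so their cells were sorted for RFP, which marks descendants of cells in which the Wnt1 promoter drove Cre. The knockout cells were sorted for GFP, made from the Hoxa2 locus, so genotype and sorting marker cannot be told apart. Tissue at E14.5 was dissociated with papain and the other tissues with trypsin, so at E14.5 stage and enzyme cannot be told apart. FNP, Mx and Md cells do not express Hox genes and are called Hox-negative here, and PA2 and pinna cells express Hoxa2. The contact lists hold no expression values, so neither the loss of Hoxa2 in the knockout libraries nor the CNCC identity of the cells could be checked.

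Hox genes encode transcription factors that give cells their position along the body axis. In mammals they lie in 4 clusters, Hoxa, Hoxb, Hoxc and Hoxd, in which the order of the genes follows the order of their expression domains from head to tail. Within a cluster, the genes at the 3′ end (in Hoxc, Hoxc4 and Hoxc5) are active further forward than those at the 5′ end (Hoxc13 and Hoxc12). Where Hox genes are silent, their clusters are known to be covered by Polycomb group proteins and to form compact domains, and Polycomb-bound clusters can touch each other across chromosomes. Hoxc genes act mainly in the trunk, the limbs and, for Hoxc13, in hair and nails, and cranial neural crest is not a main site of their activity.

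The cluster was taken as chr15:102921103-103036852 of mm10, with Hoxc13 on the centromeric side, Hoxc4 on the telomeric side and all members on the plus strand. CTCF, a zinc finger protein that halts loop extrusion, often binds at the borders of such regions. The core of its motif, read as CCA, any 2 bases, AGG, any base and GGC, was searched on both strands. Matches were found 962 times on chromosome 15, once per 105 kb, and 0 times within the cluster, which is little longer than that spacing. Of the 150 HindIII fragments within 2 Mb outside the cluster that any library listed with a Hoxc bait, 17 held a match, and of the 51 listed with all 9 baits, 8 did. These counts are given without a rate for fragments of the same lengths, so they are not read as an excess. The 4 windows shown here lie in fragments that every library listed and that all 9 baits contacted. Other fragments of this kind also held a match, such as chr15:103055255-103064065. The 4 windows are named again with the results on the flanks, whose counts cover whole flanks. They are given 5′ to 3′ on the strand of the match with the 12 matched bases in capitals.
Smug1 side, chr15:103172658-103172769, minus strand: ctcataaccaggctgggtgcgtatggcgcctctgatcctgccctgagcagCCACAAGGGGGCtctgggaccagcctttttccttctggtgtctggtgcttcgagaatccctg
Smug1 side, chr15:103184061-103184172, minus strand: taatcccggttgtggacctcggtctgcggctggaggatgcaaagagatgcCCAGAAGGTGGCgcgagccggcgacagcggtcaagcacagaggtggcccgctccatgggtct
Centromeric side, chr15:102753511-102753622, minus strand: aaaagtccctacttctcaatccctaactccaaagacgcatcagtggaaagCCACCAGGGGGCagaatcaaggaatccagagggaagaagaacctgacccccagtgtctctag
Centromeric side, chr15:102757803-102757914, plus strand: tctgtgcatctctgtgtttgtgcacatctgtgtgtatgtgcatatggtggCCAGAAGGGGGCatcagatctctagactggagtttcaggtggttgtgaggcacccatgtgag
None of these windows overlaps an annotated gene. Stretches as long as their fragments, laid end to end along chromosome 15, held a match in 2.34%, 7.66%, 2.23% and 2.11% of cases, in the same order. A match of letters is a description of the window and not a measured binding site.

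The cluster also holds the genes of 2 microRNAs, Mir196a-2 in the Hoxc9 bait and Mir615 in the Hoxc5 bait. MicroRNAs of the miR-196 family are known to repress Hox mRNAs, and their genes lie in several Hox clusters. The mature sequences are from RefSeq on GRCm38.p6. They are shown because Mir196a-2 lies in a Hoxc bait and 2 other genes of the family lie in fragments listed with Hoxc baits. The Mir196b fragment was listed in FNP replicate 1, PA2 replicate 2, knockout replicate 2 and E12.5 pinna replicate 2. In these libraries the Hoxc9 bait had no listed pair with Hoxa, so no list joined it to the Mir196b fragment. Bases 2 to 8, the seed, are in capitals.
Mir196a-2, chr15:102973365-102973386, miR-196a-5p: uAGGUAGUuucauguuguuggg
Mir196a-1, chr11:96265187-96265208, miR-196a-5p: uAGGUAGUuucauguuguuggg
Mir196b, chr6:52230129-52230150, miR-196b-5p: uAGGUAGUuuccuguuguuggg
All 3 share the seed, and the Hoxc and Hoxb copies give the same mature sequence.

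The authors scored each pair of a bait and another fragment with CHiCAGO, whose score is −ln of a weighted p-value relative to a distance-dependent background. The lists hold only pairs with a score of 5 or more, so a pair missing from a list was counted as unlisted and given a score of 0. Over the 14 libraries 8927 pairs of the Hoxc baits were listed, which were 1524 distinct pairs, with 463 to 820 per library. Of these, 20.4% lay within the cluster, 22.0% in the centromeric flank, 39.5% in the telomeric flank up to the Cbx5 gene, 12.1% in the telomeric flank from Cbx5 on, 0.795% beyond 2 Mb on chromosome 15 and 5.24% on other chromosomes. Read counts were not at hand, so the depth of the libraries is unknown. The libraries listed 119370 to 499756 pairs in all. Md replicate 1 and E12.5 pinna replicate 2 stood apart, with 150988 and 313508 interchromosomal pairs against 3705 to 8627 in the other 12 libraries, and results on other chromosomes are given with this in view.

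The Hoxc baits were among those with most contacts. Averaged over the 14 libraries, a bait of the series had a median of 4.43 listed pairs on its own chromosome, whereas the Hoxc baits had between 48.6 (Hoxc4) and 106.1 (Hoxc5). The Hoxc5 bait had more than 99.9% of all baits, and the Hoxc4 bait, the lowest of the members, more than 99.0%. In the 12 libraries other than Md replicate 1 and E12.5 pinna replicate 2, the median bait had 1 interchromosomal pair in all. The Hoxc13 bait had 70, the Hoxc6 bait 56 and the Hoxc4 bait 11.

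The 5′ genes Hoxc13, Hoxc12 and Hoxc11 encode homeodomain proteins of the most caudal Hox groups. The Hoxc13 bait had 76 and 66 same-chromosome pairs in the FNP replicates, 86 and 89 in Mx, 78 and 81 in Md, 80 and 89 in PA2, 66 and 80 in the knockout, 54 and 55 in E12.5 pinna, and 40 and 44 in E14.5 pinna. All 4 pinna values lay below those of the other 10 libraries, and those of E14.5 below those of E12.5. The Hoxc12 bait had 72 and 71 pairs in FNP, 68 and 56 in Mx, 52 and 71 in Md, 58 and 58 in PA2, 39 and 53 in the knockout, 44 and 37 in E12.5 pinna, and 28 and 16 in E14.5 pinna. Both E14.5 values were the lowest of the 14, whereas the knockout values overlapped those of Md and E12.5 pinna. The Hoxc11 bait had 77 and 79 pairs in FNP, 74 and 84 in Mx, 72 and 90 in Md, 81 and 76 in PA2, 47 and 60 in the knockout, 38 and 59 in E12.5 pinna, and 51 and 27 in E14.5 pinna. The 8 wild-type E10.5 libraries all lay above the other 6, among which knockout and pinna values overlapped.

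The genes in the middle of the cluster, Hoxc10, Hoxc9 and Hoxc8, pattern the lower trunk and the limbs. The Hoxc10 bait had 71 and 95 pairs in FNP, 74 and 90 in Mx, 47 and 76 in Md, 66 and 79 in PA2, 31 and 37 in the knockout, 40 and 13 in E12.5 pinna, and 39 and 59 in E14.5 pinna. Its lowest value, 13, came from E12.5 pinna replicate 2, and Md replicate 1 lay below E14.5 pinna replicate 2. The Hoxc9 bait had 86 in each FNP replicate, 82 and 91 in Mx, 84 and 114 in Md, 81 and 82 in PA2, 70 and 81 in the knockout, 57 and 36 in E12.5 pinna, and 57 and 85 in E14.5 pinna. The Hoxc8 bait had 90 in each FNP replicate, 80 and 79 in Mx, 82 and 92 in Md, 82 and 78 in PA2, 49 and 51 in the knockout, 68 and 46 in E12.5 pinna, and 83 and 59 in E14.5 pinna. For both genes a replicate of E14.5 pinna reached the range of the E10.5 wild-type libraries, and for Hoxc8 both knockout values lay below all 8 of them.

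The 3′ genes Hoxc6, Hoxc5 and Hoxc4 are the most anteriorly expressed of the cluster. The Hoxc6 bait had 89 and 82 pairs in FNP, 81 and 94 in Mx, 56 and 99 in Md, 92 and 96 in PA2, 95 and 79 in the knockout, 85 and 48 in E12.5 pinna, and 109 and 80 in E14.5 pinna. The Hoxc5 bait had 97 and 102 pairs in FNP, 95 and 119 in Mx, 90 and 118 in Md, 103 and 107 in PA2, 100 and 105 in the knockout, 121 and 97 in E12.5 pinna, and 122 and 109 in E14.5 pinna. The highest value of both baits came from E14.5 pinna replicate 1, where the Hoxc12 and Hoxc13 baits were among their lowest. The Hoxc4 bait had 48 to 61 pairs in the 8 E10.5 wild-type libraries, 39 and 50 in the knockout, 45 and 24 in E12.5 pinna, and 55 and 25 in E14.5 pinna, so its pinna replicates differed more from each other than their means did.

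**Figure D1:**
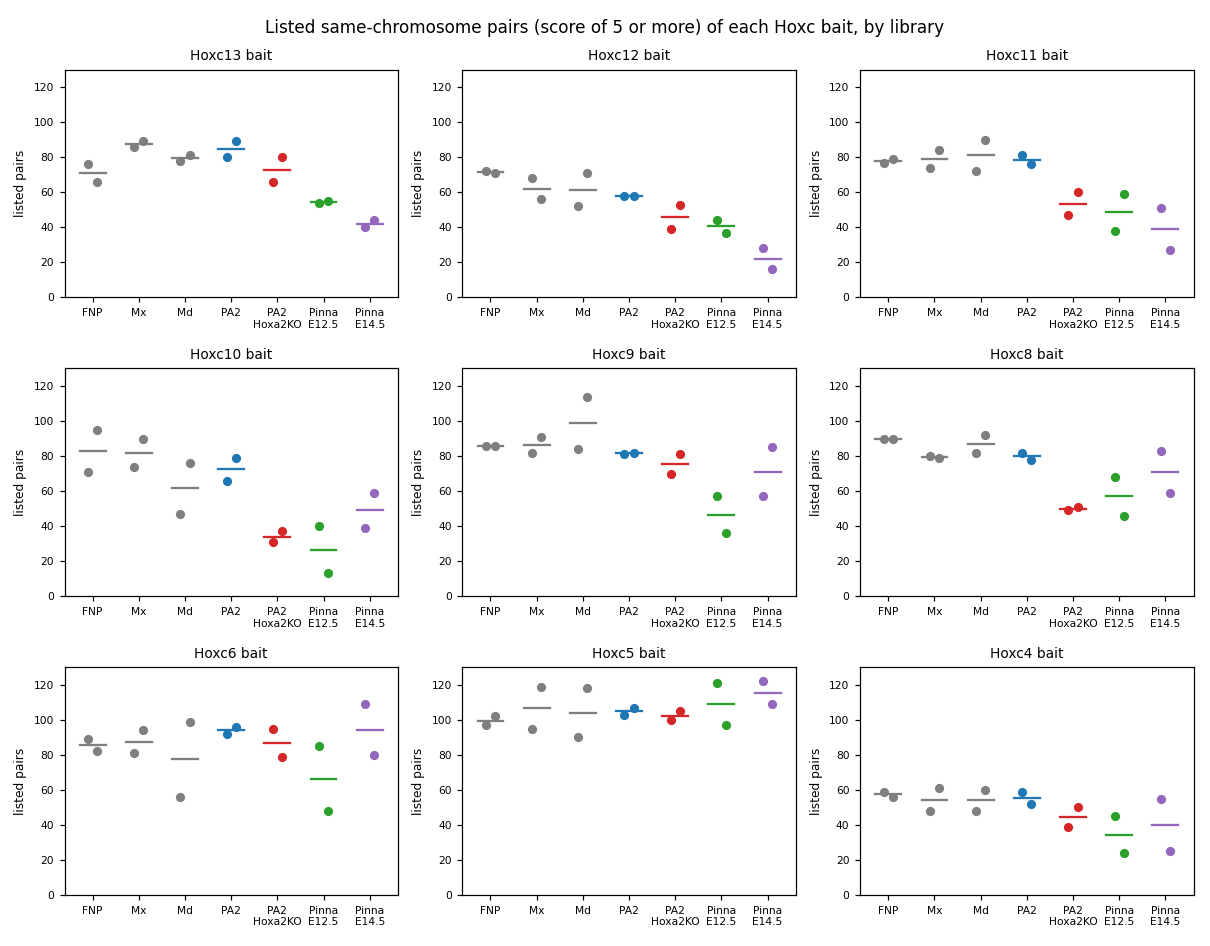
Listed same-chromosome pairs (score of 5 or more, y axis) of each Hoxc bait in the 14 libraries, by condition (x axis); points are libraries and bars the mean of 2 replicates. The Hoxc13 and Hoxc12 baits fell to 40 and 44 and to 28 and 16 pairs in E14.5 pinna, while the Hoxc5 bait kept 122 and 109.

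To test whether these differences between baits exceeded the spread between replicates, the number of same-chromosome pairs of every bait was compared on a log2 scale, centred within each library, with limma over all baits. In E14.5 pinna against PA2, 3 of the 9 Hoxc baits were called at an adjusted p below 0.05, all with fewer pairs, against 2.07% of all baits called in either direction and 1.12% with fewer. The log2 difference was -1.53 for Hoxc12 (SE 0.330, adjusted p = 0.0126, limma), -1.11 for Hoxc13 (SE 0.260, adjusted p = 0.0222, limma) and -1.18 for Hoxc11 (SE 0.302, adjusted p = 0.0399, limma). The other 6 baits did not pass, with log2 differences between -0.70 for Hoxc10 and 0.01 for Hoxc5. The median over the 9 baits was -0.68, and over all baits -0.02. Without PA2 replicate 1, PA2 replicate 2 or E14.5 pinna replicate 2 no Hoxc bait was called, and without E14.5 pinna replicate 1 2 were, so the call rests on each of these libraries.

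In E12.5 pinna against PA2 no Hoxc bait was called by limma (background 0.378%), with 8 of the 9 at an unadjusted p below 0.05, against 11.6% of all baits. The largest difference was that of Hoxc10, with a mean of 26.5 pairs against 72.5 and a log2 difference of -1.82 (SE 0.420, adjusted p = 0.0525, limma). Without E12.5 pinna replicate 1, 6 baits were called. In the knockout against PA2 no Hoxc bait was called by limma (background 0.434%), and 1 of the 9 had an unadjusted p below 0.05, against 2225 of all 21174 baits. This was Hoxc10, with 34 pairs against 72.5 and a log2 difference of -0.89 (SE 0.420). These comparisons share the PA2 libraries. Between the 6 Hoxa2-expressing and the 6 Hox-negative libraries no Hoxc bait was called by limma (background 0.702%), and 4 had an unadjusted p below 0.05, against 13.9% of all baits. All 4, namely Hoxc12, Hoxc11, Hoxc10 and Hoxc9, had fewer pairs.

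The counts of the 9 baits together show where contacts were fewer. Each pair was counted once here, also where both ends were members. Pairs within the cluster numbered 156 and 157 in FNP, 154 and 156 in Mx, 127 and 158 in Md, 160 and 151 in PA2, 108 and 119 in the knockout, 129 and 86 in E12.5 pinna, and 99 and 65 in E14.5 pinna. The E12.5 pinna values overlapped those of the knockout, both E14.5 values lay below those of the knockout, and E12.5 pinna replicate 1 lay just above Md replicate 1. Pairs with the centromeric flank numbered 160 and 171 in FNP, 148 and 187 in Mx, 149 and 199 in Md, 161 and 174 in PA2, 118 and 136 in the knockout, 82 and 60 in E12.5 pinna, and 95 and 122 in E14.5 pinna. Pairs with the telomeric flank up to Cbx5 numbered 290 and 268 in FNP, 275 and 288 in Mx, 234 and 306 in Md, 276 and 280 in PA2, 235 and 255 in the knockout, 224 and 179 in E12.5 pinna, and 227 and 186 in E14.5 pinna. In both of these flanks all 4 pinna libraries lay below all 8 wild-type libraries of E10.5.

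The telomeric flank from Cbx5 on took a different course. Its pairs numbered 74 and 92 in FNP, 65 and 93 in Mx, 54 and 99 in Md, 69 and 67 in PA2, 39 and 48 in the knockout, 84 and 56 in E12.5 pinna, and 130 and 108 in E14.5 pinna. The E14.5 values were the highest of the 14 libraries and the knockout values the lowest. The Hoxc5 bait had 10 to 25 of these pairs in the E10.5 wild-type libraries, 11 and 15 in the knockout, 31 and 22 in E12.5 pinna, and 35 and 27 in E14.5 pinna. The Hoxc6 bait had 3 to 13 in the E10.5 wild-type libraries, 11 and 3 in the knockout, 15 and 5 in E12.5 pinna, and 28 and 21 in E14.5 pinna. The Hoxc12 and Hoxc13 baits had 0 to 3 in every library. The counts by bait in this flank were compared after they were seen and were not tested.

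**Figure D2:**
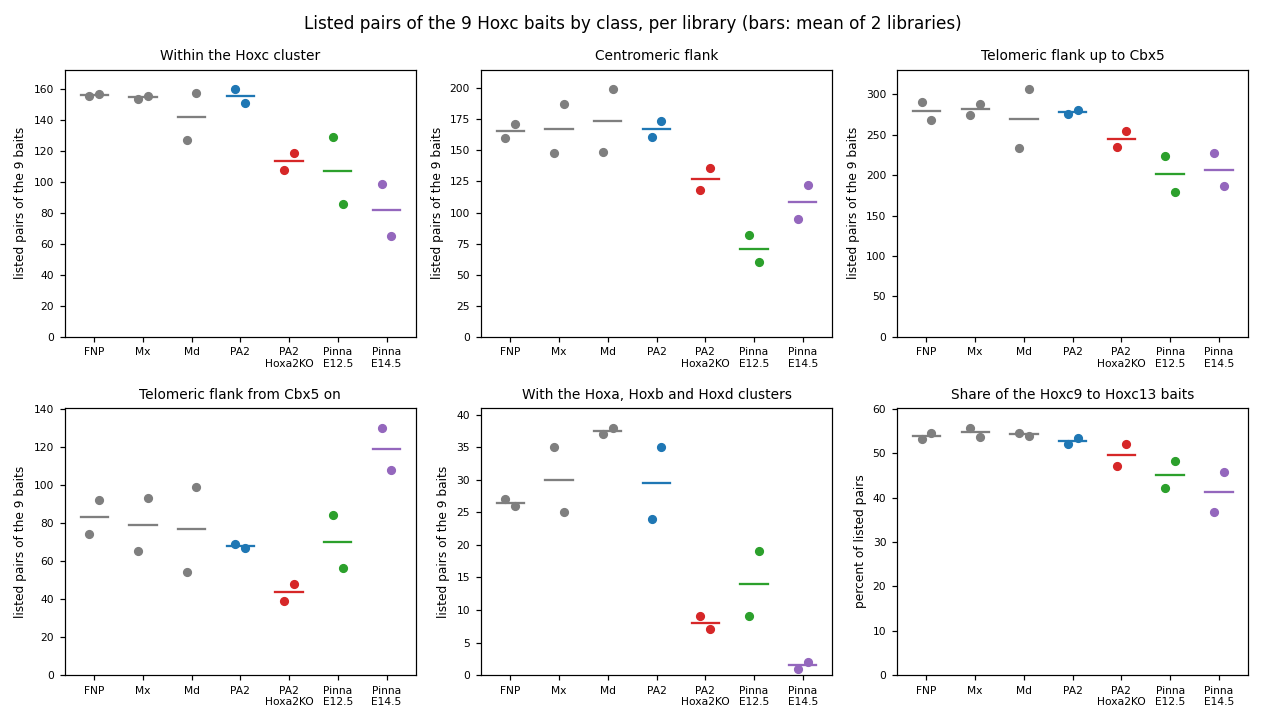
Listed pairs of the 9 Hoxc baits (y axis) by class of partner, and the percent of same-chromosome pairs held by the Hoxc9 to Hoxc13 baits, in the 14 libraries by condition (x axis); points are libraries and bars the mean of 2 replicates. Pinna libraries lay below E10.5 wild-type libraries in the centromeric flank and up to Cbx5, whereas from Cbx5 on E14.5 pinna had the highest counts, 130 and 108.

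The study's grouping by Hoxa2 expression was tested with two-sided exact permutation tests over libraries, adjusted over the 5 classes fixed for it (within the cluster, within 2 Mb, beyond 2 Mb, interchromosomal, and interchromosomal with another Hox cluster). Within the cluster, the Hoxa2-expressing libraries had 115.0 ± 37.7 pairs (SD, n = 6) and the Hox-negative libraries 151 ± 11.99 (SD, n = 6; exact p = 0.0628). Within 2 Mb outside it they had 430.0 ± 83.1 and 525 ± 58.7 pairs (exact p = 0.0411). Neither passed after adjustment, with adjusted p = 0.105 and 0.103 in the exact tests, nor did the other 3 classes, with adjusted p between 0.103 and 0.690. Without PA2 replicate 1 the differences were -45.3 pairs within the cluster and -110.5 within 2 Mb (exact tests, adjusted p = 0.0469 each). Among the E10.5 libraries alone, PA2 had 4.17 pairs more within the cluster than the Hox-negative libraries, so the lower mean of the Hoxa2-expressing libraries came with the pinna. The exact tests of this grouping treat replicates of a condition as separate. With whole conditions kept together only 10 groupings exist, too few for a p below 0.05.

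Against the PA2 libraries the 4 pinna libraries had fewer pairs within the cluster, in the centromeric flank and up to Cbx5 with no overlap, but 4 against 2 libraries cannot give an exact p below 0.0667, and the p adjusted over 9 measures was 0.150 in each exact test. A comparison of the 4 pinna with all 8 E10.5 wild-type libraries was added after the values were seen, with p adjusted over 9 measures. Pairs within the cluster fell from 152 ± 10.6 (SD, n = 8) to 94.8 ± 26.8 (SD, n = 4; exact test, adjusted p = 0.00606). In the centromeric flank they fell from 169 ± 17.9 to 89.8 ± 25.9, and up to Cbx5 from 277 ± 21.0 to 204 ± 25.0 (exact tests, adjusted p = 0.00455 each). From Cbx5 on, the means were 76.6 ± 16.1 and 94.5 ± 31.8 pairs (exact test, adjusted p = 0.241), a difference that did not pass, but without E12.5 pinna replicate 2 it was 30.7 pairs (exact test, adjusted p = 0.0477). These tests treat replicates of a condition as separate. With whole conditions kept together only 15 groupings exist, and the smallest p would be 0.0667.

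Also measured was the part of the same-chromosome pairs held by the 5 baits from Hoxc13 to Hoxc9, which was not a measure fixed beforehand. It was 53.3% and 54.6% in FNP, 55.8% and 53.7% in Mx, 54.7% and 53.9% in Md, 52.1% and 53.6% in PA2, 47.2% and 52.2% in the knockout, 42.2% and 48.2% in E12.5 pinna, and 36.8% and 45.8% in E14.5 pinna. It was 43.3% ± 4.95 in the pinna and 54.0% ± 1.09 in the E10.5 wild-type libraries (SD, n = 4 and 8; exact test, adjusted p = 0.00455), with no overlap. The share is drawn from the same counts by bait described above, so its tests give no independent support for their fall. Between the 6 Hoxa2-expressing and the 6 Hox-negative libraries it was 46.5% ± 6.28 and 54.3% ± 0.897 (SD; exact test, adjusted p = 0.0390 over 9 measures). This call was lost when any 1 of the 6 Hox-negative libraries was left out, with differences of -8.10 to -7.59 percentage points and adjusted p of 0.0701 to 0.140 in the exact tests. It was also lost with a score of 10 or more (-16.0 points) and without Md replicate 1 and E12.5 pinna replicate 2 (-8.16 points), and among the E10.5 libraries alone the difference was -1.49 points. The tests of the share treat replicates of a condition as separate. With whole conditions kept together the Hoxa2 comparison has only 10 groupings, too few for a p below 0.05.

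Contacts between members were dense. Of the 36 possible pairs of Hoxc baits, each was listed in at least 1 library and 15 in all 14 libraries. At E10.5 the wild-type libraries listed 34 to 36 of them. The knockout listed 32 and 33, E12.5 pinna 33 and 25, and E14.5 pinna 31 and 18. The highest median score, 21.6, belonged to the pair of Hoxc13 with Hoxc6, whose baits lie 74.9 kb apart. Its score was 30.39 and 19.06 in FNP, 36.04 and 21.92 in Mx, 19.51 and 23.91 in Md, 31.87 and 25.57 in PA2, 22.23 and 21.24 in the knockout, 21.09 and 10.63 in E12.5 pinna, and 12.53 and 7.25 in E14.5 pinna. E14.5 pinna and E12.5 pinna replicate 2 lay below all other libraries. The next pair by median score, 19.8, was Hoxc13 with Hoxc4, which joins both ends of the cluster.

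Outside the cluster, the Hoxc baits shared a block of 10 neighbouring fragments, each with at least 90 listed pairs over the 14 libraries, at chr15:103157823-103188193, 121 kb beyond the cluster. It covers the start of Smug1, which encodes a uracil DNA glycosylase of base excision repair, and the 2 windows printed above for the Smug1 side. Of the 90 possible pairs of the 9 baits with these fragments, the wild-type libraries listed 80 to 88 and the knockout libraries 75 and 82. The summed score of the Hoxc5 bait with the block was 273.9 and 270.0 in FNP, 322.1 and 298.3 in Mx, 273.0 and 370.65 in Md, 326.6 and 331.2 in PA2, 244.1 and 263.2 in the knockout, 380.8 and 400.2 in E12.5 pinna, and 367.2 and 400.1 in E14.5 pinna. The pinna values were the highest apart from Md replicate 2, which lay above E14.5 pinna replicate 1, and the knockout values were the lowest. The Hoxc13 bait, by contrast, had a mean summed score of 94.9 ± 11.3 with the block in the E10.5 wild-type libraries (SD, n = 8) and 54.8 ± 8.25 in E14.5 pinna (SD, n = 2), without overlap. In the knockout it had 42.96 and 72.64, also below all 8 of those libraries. The scores of this block were examined after they were seen and were not tested. The single highest score of all Hoxc pairs, 81.8, joined the Hoxc5 bait to the fragment chr15:103165708-103170892 in an E14.5 pinna library.

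**Figure D3:**
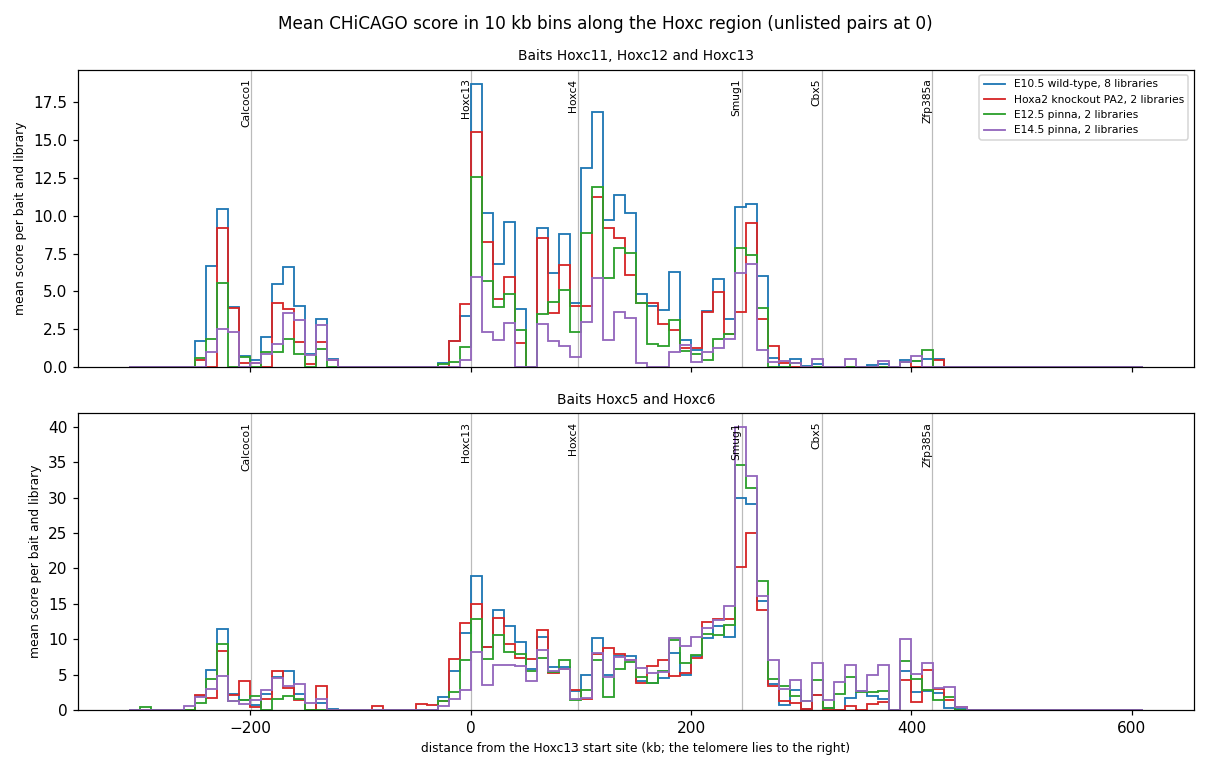
Mean CHiCAGO score per bait and library (y axis, unlisted pairs at 0) in bins of 10 kb by distance from the Hoxc13 start site (x axis, kb), for the Hoxc11, Hoxc12 and Hoxc13 baits (top) and the Hoxc5 and Hoxc6 baits (bottom); grey lines mark start sites of genes. E14.5 pinna lay lowest over most of the cluster in the top panel and highest at Smug1 in the bottom panel.

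Other genes of the region were met as partners through fragments that hold their start sites. Calcoco1, in the centromeric flank and encoding a receptor for selective autophagy, was listed with a Hoxc bait in all 14 libraries. So were Gpr84, which encodes a receptor for medium-chain fatty acids, and Zfp385a, which encodes a zinc finger protein. Cbx5, which encodes the heterochromatin protein HP1α, and Itga5, which encodes the fibronectin receptor subunit integrin α5, were listed in 13 libraries, Copz1, a coat protein gene, in 12, and Hnrnpa1, a splicing factor gene, in 7. Of the 26 genes of a list of neighbours that start outside the cluster, 11 were listed in at least 1 library and 4 in all 14. The printed centromeric windows lie between Calcoco1 and the cluster, in fragments listed 87 and 91 times.

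Beyond 2 Mb on chromosome 15 only 71 pairs were listed over the 14 libraries. They involved 39 fragments, and 29 of these were listed in a single library. The fragment seen most often, chr15:35295450-35296993, holds the start of Osr2, a zinc finger gene needed for palate and tooth development. It was listed with 6 Hoxc baits in 6 libraries, with scores up to 11.9, and Md replicate 1 and E12.5 pinna replicate 2, the libraries that stood apart, were both among them.

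Single pairs were compared on the asinh of the score with limma over all pairs in the series. In E14.5 pinna against PA2, 35 of 822 Hoxc pairs (4.26%) were called at an adjusted p below 0.05, against 1.57% of all pairs. Lower scores made up 34 of them (4.14% of Hoxc pairs, against 0.793% of all pairs). The median difference was -0.48 over the Hoxc pairs and 0 over all pairs. Of the 34 lower pairs, 28 were unlisted in both E14.5 libraries, 33 had been listed in all 8 E10.5 wild-type libraries, and 24 of the 35 involved the Hoxc11, Hoxc12 or Hoxc13 bait. The same shares among the 822 tested pairs are not given, so these counts describe the list only. On simulated data a pair fit on condition means, as used here and for the knockout, called more unchanged pairs than the adjusted p allows. Without PA2 replicate 1, 20 Hoxc pairs were called, and without E14.5 pinna replicate 1, 65 were.

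The largest difference joined the Hoxc13 bait to chr15:103005264-103012136, which holds a further start site of Hoxc6 and is no bait. Its score was 13.8 and 10.4 in FNP, 16.3 and 18.45 in Mx, 10.35 and 11.6 in Md, 17.9 and 16.3 in PA2, 9.37 and 12.48 in the knockout, and 6.90 and 8.96 in E12.5 pinna, and it was unlisted in both E14.5 libraries (difference -3.53, SE 0.242, adjusted p = 0.000308, limma). The pair of Hoxc13 with chr15:103037829-103043967, which begins just beyond the cluster, remained listed at 7.75 and 7.97 in E14.5 pinna against 21.2 and 23.8 in PA2 (difference -1.05, SE 0.130, adjusted p = 0.00586, limma). The Hoxc4 bait lost its listed contact with the fragment that holds Hotair. That pair scored between 7.25 and 10.95 in the 8 E10.5 wild-type libraries, 6.98 and 8.76 in the knockout, and was unlisted in all 4 pinna libraries (adjusted p = 0.00736, limma). The pair with Hotair and the one before it were not among the 10 largest differences and were named after their values were seen.

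The only pair called higher joined the Hoxc6 bait to chr15:103284417-103285212, the fragment with the start of Mir148b, beyond Cbx5. It scored 7.54 and 5.44 in E12.5 pinna and 9.18 and 6.62 in E14.5 pinna, and was unlisted in the other 10 libraries (difference 2.75, SE 0.465, adjusted p = 0.0195, limma), against 0.777% of all pairs called higher. It ranked below the 10 largest differences and was named after its values were seen, as the only higher call. The call was lost without PA2 replicate 1 or PA2 replicate 2 (adjusted p of 0.0721 to 0.0734, limma) and with quantile normalization (adjusted p = 0.0735, limma). Without either E14.5 replicate, or with pairs listed in at least 6 libraries, the pair fell below the filter and was not tested. All its listed scores were near the lower limit of the lists. The pair passed the filter of 4 listed libraries only through the 4 pinna libraries, where it was high. Its adjusted p depends on that selection and is no independent support for a higher score.

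In the knockout against PA2, 10 of 822 Hoxc pairs (1.22%) were called, against 2.16% of all pairs, and 9 of them were lower (1.09%, against 1.8%). The share was thus below the background. The median difference was -0.24 over the Hoxc pairs and -0.09 over all pairs, and the knockout libraries listed 113670 and 120854 same-chromosome pairs in all, against 140559 and 145035 in PA2. The part of these totals in the result was not tested. The largest difference joined the Hoxc11 bait to the short Smug1 fragment chr15:103165393-103165707, which scored 15.7 and 14.9 in PA2, between 7.05 and 15.1 in the other 10 wild-type libraries, and was unlisted in both knockout libraries (difference -3.42, SE 0.285, adjusted p = 0.000266, limma). The Hoxc8 bait held 4 of the 10 called pairs. With chr15:103165708-103170892, also in the Smug1 block, its score was 33.2 and 35.6 in PA2 and 13.7 and 16.1 in the knockout (difference -0.84, SE 0.169, adjusted p = 0.0296, limma), and the knockout values lay below all 12 wild-type values. This call was lost when any 1 of the 4 libraries was left out (adjusted p of 0.0783 to 0.224, limma). The pair called higher joined Hoxc4 to chr15:103089316-103094613, at 5.74 and 6.51 in the knockout, unlisted in PA2 and 5.12 and 5.11 in FNP. Without either knockout replicate it fell below the filter and was not tested. It was listed in no other library, so it passed the filter of 4 listed libraries only with both knockout libraries. The call depends on that selection and is no independent support for a higher score.

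Between Hoxa2-expressing and Hox-negative libraries none of 1024 Hoxc pairs was called by limma, against 0.0203% of all pairs, with 175 (17.1%) at an unadjusted p below 0.05, against 6.50% of all pairs. The median difference was -0.41 over the Hoxc pairs and -0.01 over all pairs. In a fit on the 7 condition means, 66 Hoxc pairs (6.45%) were called, against 6.11% of all pairs, so the share called in either direction was near the background. Of the 66 Hoxc pairs, 57 were lower, where 2.93% of all pairs were called lower.

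On other chromosomes the Hoxc baits were listed with 204 distinct fragments in 468 pairs. The Hoxb cluster on chromosome 11 took 240 of these pairs (51.3%), the Hoxa cluster on chromosome 6 took 49 (10.47%) and the Hoxd cluster on chromosome 2 took 5 (1.07%). Of the remaining 174 pairs, 90 came from Md replicate 1 and E12.5 pinna replicate 2. Of the 33 fragments seen in at least 3 libraries, 27 lay in a Hox cluster, 21 in Hoxb and 6 in Hoxa. Among all baits on other chromosomes, 0.0984% were listed with a Hoxc bait in at least 3 libraries.

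The partners seen most often were promoters of Hoxb genes. The fragment with Hoxb3 starts at chr11:96321828-96327276 and the fragment with Hoxb8 at chr11:96278714-96281905 were each listed in 11 libraries, with scores up to 33.1 and 24.7. So was a fragment with the antisense gene Hoxb5os. The highest interchromosomal score of the Hoxc baits, 42.6, was with Hoxb2 at chr11:96348585-96354229, listed in 8 libraries. This score came from the Hoxc6 bait in Md replicate 1, a library that stood apart in its interchromosomal pairs. The fragment with Mir196a-1, whose mature sequence is printed above, was listed in 6 libraries with 7 Hoxc baits. In Hoxa, Hoxa11 and Hoxa9 were each listed in 4 libraries, and Hoxa2, Hoxa4 and Hoxa5 in 3 each. The libraries that listed Hoxa2 were FNP replicate 1, Mx replicate 2 and Md replicate 2, and no PA2 or pinna library did. The Hoxa fragment seen most often, chr6:52174760-52177869 with a start of Hoxaas3, was listed in 6 libraries. In Hoxd, Hoxd4 was listed in 2 libraries and Hoxd9 in 1, and Hoxd13 to Hoxd10, Hoxd8, Hoxd3 and Hoxd1 in none.

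The number of Hoxc pairs with another Hox cluster was 27 and 26 in FNP, 35 and 25 in Mx, 37 and 38 in Md, 24 and 35 in PA2, 9 and 7 in the knockout, 9 and 19 in E12.5 pinna, and 1 and 2 in E14.5 pinna. All 8 wild-type libraries of E10.5 lay above the 6 others. The fall from 30.9 ± 5.89 (SD, n = 8) to 7.75 ± 8.30 pairs in the pinna (SD, n = 4) passed the added exact test (adjusted p = 0.00455). The totals of interchromosomal pairs over all baits were 3705 and 313508 in E12.5 pinna, 3941 and 8627 in E14.5 pinna, 5700 and 7188 in the knockout and 4402 and 5021 in PA2. Their part in the result was not tested. The knockout and PA2 values were not tested, since 2 against 2 libraries cannot give an exact p below 0.333. Of the libraries that stood apart, Md replicate 1 had 37 pairs, beside 38 in Md replicate 2, and E12.5 pinna replicate 2 had 19, the highest of the 4 pinna libraries.

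Among the members, the Hoxc13 and Hoxc6 baits had most interchromosomal pairs, 91 and 85 over the 14 libraries, and the Hoxc8 bait fewest, 22. The Hoxc13 bait had 2 to 8 pairs with Hoxb in each E10.5 wild-type library, 1 and 2 in the knockout, 1 and 3 in E12.5 pinna, and 0 in both E14.5 libraries. The Hoxc6 bait had 0 to 7 in the E10.5 wild-type libraries, 1 in each knockout library, 3 and 4 in E12.5 pinna, and 0 in both E14.5 libraries.

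To compare the clusters with each other, all listed pairs between 2 Hox clusters were counted, from any bait of either. Hoxb and Hoxc, with 795 possible pairs, had 33 and 28 listed in FNP, 50 and 36 in Mx, 37 and 47 in Md, 28 and 39 in PA2, 15 and 10 in the knockout, 13 and 19 in E12.5 pinna, and 1 and 2 in E14.5 pinna. The mean was 37.2 ± 8.03 (SD, n = 8) at E10.5 and 8.75 ± 8.73 (SD, n = 4) in the wild-type pinna, and it differed in the exact permutation test over libraries (adjusted p = 0.0121 over the 6 pairs of clusters). The Hoxa and Hoxc clusters had 82 listed pairs over the 14 libraries and fell from 8.88 ± 4.67 to 2.00 ± 2.71 (SD, n = 8 and 4; exact p = 0.0323, adjusted p = 0.0970), which did not pass. Per possible pair, Hoxb with Hoxc exceeded Hoxc with Hoxd in 12 of 12 wild-type libraries and Hoxa with Hoxc in 11 of 12 (exact sign-flip permutation tests, adjusted p = 0.00146 each). All tests between pairs of clusters treat replicates of a condition as separate, so their p-values are smaller than whole conditions could give. They were not among the comparisons fixed beforehand.

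**Figure D4:**
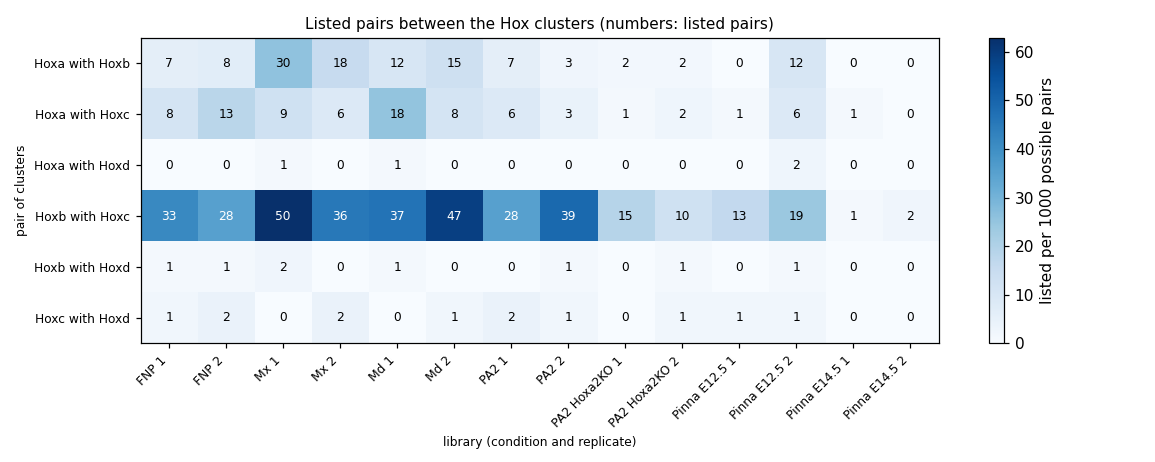
Listed pairs between Hox clusters (rows) in the 14 libraries (columns); the numbers are listed pairs and the colour gives listed pairs per 1000 possible. Hoxb with Hoxc is the densest row, with 28 to 50 pairs in E10.5 wild-type libraries and 1 and 2 in E14.5 pinna.

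Outside the Hox clusters, 174 interchromosomal pairs were listed, 90 of them from Md replicate 1 and E12.5 pinna replicate 2. Of 35 genes of transcription factors that are known Polycomb targets, 2 were listed with a Hoxc bait, Gata4 in both Mx libraries and Pax3 in PA2 replicate 2, and none in 3 libraries or more. These were 5.88% of the 34 genes of this list with a bait. Of all baits on other chromosomes, 0.220% were listed in at least 1 library. The listed Gata4 fragment, chr14:63235671-63249666, is no bait, so the 2 shares count different things and cannot be compared. The fragment with Zic2, a transcription factor gene of the early neural plate and crest on chromosome 14, was listed in 4 libraries with a single Hoxc bait and scores up to 13.3, and was named after its values were seen. Near it, a fragment with Zic5 was listed in 1 library. On chromosome 9, fragments with Zic1 and Zic4 starts were listed in 1 library each, and the neighbouring chr9:91352523-91353294 in 3. They were likewise named after their values were seen.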

How the data were processed

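The authors mapped PCHi-C reads to GRCm38/mm10 with HiCUP 0.6.1, called interactions with CHiCAGO 1.24.0, and deposited for each library a list of fragment pairs with the CHiCAGO score (5 or more). Here the fragments were matched to the HindIII digest of the reference, baits were named by GENCODE vM21 start sites, and unlisted pairs received 0. Libraries were grouped by the labels. Single counts were compared with two-sided exact permutation tests, pairs (asinh of the score, listed in at least 2 libraries, or 4 for comparisons with PA2) and baits (log2 of the number of pairs plus 1, centred per library) with limma 3.58.1 (R 4.3.3, eBayes), with Benjamini-Hochberg adjustment at 0.05. Named pairs come from the 10 largest called differences of a comparison, except those said to be chosen after their values were seen. On simulated data the bait fits kept to the adjusted p, whereas a pair fit on condition means called more unchanged pairs than it allows, so those pairs are a list only. The members, gene lists and comparisons were chosen with earlier results of these data known. Python 3.11.15 with pandas 2.3.3 was used. Alternatives were other score thresholds, scales, filters, normalizations, groupings and omitted libraries.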

Additional observations from a re-analysis of the deposited data

Results flagged for a closer look

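Of 36 sets of 4 to 8 libraries that were examined for a library far from the rest, 3 held one, and chance gives about 1 in 20. Md replicate 1 had 127 listed pairs within the Hoxc cluster, against 154 for the nearest of the 6 Hox-negative libraries and 151 for the nearest of the 8 E10.5 wild-type libraries. E12.5 pinna replicate 2 had 73 interchromosomal Hoxc pairs, against 11 for the nearest of the 4 pinna libraries. Both libraries also had the highest totals of interchromosomal pairs in the series, and the part of that in these values was not tested.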

How the results depend on the processing

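The added comparison of pinna with all E10.5 wild-type libraries kept its direction and its side of the threshold for pairs within the cluster, in the centromeric flank, up to Cbx5 and with other Hox clusters when single libraries were left out. In that comparison all interchromosomal pairs did not pass at the main setting. They passed with a score of 10 or more (-9.88), with summed scores (-284) and with summed scores capped at 20 (-271). They also passed with equal numbers of top pairs (-29.0) and as a share of the listed interchromosomal pairs of each library (-630.0 per 100000). Without Md replicate 1 and E12.5 pinna replicate 2 they passed too (-36.3). The range with single libraries left out was -40.3 (without E12.5 pinna replicate 2, which also passed) to -16.3. From Cbx5 on, the difference passed with a score of 10 or more (9.25) and ranged from 6.04 to 30.7 with single libraries left out. Between Hoxa2-expressing and Hox-negative libraries, adding the knockout libraries made the differences pass within the cluster (-36.7), within 2 Mb (-98.96), with other Hox clusters (-18.1), in the centromeric flank (-50.5) and up to Cbx5 (-44.1), and turned that from Cbx5 on (-4.38). With E10.5 libraries only, the sign turned within the cluster (4.17), beyond 2 Mb (0.333), up to Cbx5 (1.17) and from Cbx5 on (-11.5). The share of the Hoxc9 to Hoxc13 baits no longer passed with a score of 10 or more (-16.0 percentage points), without Md replicate 1 and E12.5 pinna replicate 2 (-8.16) or with E10.5 libraries only (-1.49), and ranged from -9.30 to -5.96 with single libraries left out. Leaving out single libraries gave -45.3 to -26.3 within the cluster, -113.5 to -68.3 within 2 Mb, -2.27 to 0.0667 beyond 2 Mb, -28.6 to -14.2 for interchromosomal pairs, -20.3 to -13.5 with other Hox clusters, -65.0 to -42.2 in the centromeric flank, -58.4 to -38.2 up to Cbx5 and -2.70 to 12.1 from Cbx5 on. Without PA2 replicate 1 the differences within the cluster, within 2 Mb, in the centromeric flank, up to Cbx5 and with other Hox clusters passed, and without PA2 replicate 2 the last 3 of these did. The sign beyond 2 Mb turned without Md replicate 1, and from Cbx5 on without E14.5 pinna replicate 1. Against PA2, pinna pairs beyond 2 Mb differed by -7 to 3 in this way, with a positive value without PA2 replicate 2. The causes were not tested.

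The count of called Hoxc pairs between Hoxa2-expressing and Hox-negative libraries was 0, and 1 with quantile normalization. With 7 condition means it was 66 (6.45%, against 6.11% of all pairs). In the knockout it was 10, and 25 with pairs listed in at least 2 libraries, and it ranged from 7 to 15 with single libraries left out. In E14.5 pinna it ranged from 20 to 65. Called baits in E14.5 pinna ranged from 0 to 2 against 3, and in E12.5 pinna from 0 to 6. Replicate numbers were shared between conditions but did not pair the libraries, since same-numbered deviations from the condition means correlated at 0.00209 to 0.0745 (median 0.0140). A fit with the replicate number as a block called 1 Hoxc bait in E12.5 pinna in place of 0.

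Bait differences near 0 turned sign as follows, on the log2 scale. For Hoxa2-expressing against Hox-negative libraries, Hoxc6 went to -0.00548 with summed scores, -0.32 with a score of 10 or more, and -0.11 to 0.27 with single libraries left out. For E14.5 pinna, Hoxc5 went to -2.14e-05 with summed scores, -0.077 with a score of 10 or more, and -0.18 to 0.21 with single libraries left out, where Hoxc6 ranged over -0.46 to 0.20 and Hoxc8 over -0.66 to 0.044. For E12.5 pinna, Hoxc5 went to 0.045 without centring, 0.11 with a score of 10 or more, and -0.59 to 0.28. In the knockout, Hoxc9 went to -0.11, Hoxc6 to -0.12 and Hoxc5 to -0.035 without centring, and Hoxc6 to -0.0799 with summed scores and -0.21 with a score of 10 or more. With single libraries left out, the knockout differences ranged over -0.34 to 0.024 for Hoxc12, -0.13 to 0.076 for Hoxc13, -0.28 to 0.0070 for Hoxc4 and -0.096 to 0.24 for Hoxc6. Lists with no score under 5 and no read counts limit these comparisons, since a pair just below the limit and an absent one cannot be told apart.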

Other observations

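The baits whose number of same-chromosome pairs followed that of the 9 Hoxc baits most closely over the 14 libraries were ranked by Spearman correlation among 10190 baits. The first was a bait with Prrc2a on chromosome 17 (rho = 0.950), followed by baits with Cfd (rho = 0.937), Mir9-1 (rho = 0.924), P4hb (rho = 0.923) and Gm15624 (rho = 0.922). The median over the ranked baits was 0.0936 and 121 had a value of at least 0.8. The points share the libraries and their depth, so these values are a description. The Prrc2a bait had 48 and 57 pairs in PA2 and 38 and 21 in E14.5 pinna.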
